A study of Homo sapiens with 24 samples.

Results

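The cytosolic ribosome is built from small-subunit (RPS) and large-subunit (RPL) proteins, and the mRNAs of these proteins were followed here across polysome pools of MRC5 cells, an established line of human lung fibroblasts. Member genes were taken by name, as RPS, RPL or RPLP followed by a number, among the catalog probes of the array, with the ribosomal S6 kinases and pseudogenes left out. By this rule 59 of the 15102 gene names on the catalog probes were members, with 82 of 17535 probes. The scanner software had marked a spot of 5 of these probes as an outlier on at least 1 array, and these probes were not used, so that 77 probes of 56 genes remained. They comprised 30 probes of 22 small-subunit genes and 47 probes of 34 large-subunit genes. RPL10, RPS15 and RPS18 lost their only probe, and 17 genes had more than 1 probe, with at most 4.

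Control cells were untreated, and the other cells received hydrogen peroxide at 0.2 mM over 2 hours, which is called OS for oxidative stress. From each condition 4 kinds of RNA were hybridised with a single dye: total RNA of whole cells, and RNA of the untranslated (sucrose fractions 1 to 9, with free particles and single ribosomes), low (fractions 10 to 14, with 2 to 4 ribosomes) and high (fractions 15 to 23, with 5 or more ribosomes) pools. This gave 8 groups of 3 arrays, and the cells used for the gradients, control and OS, had received cycloheximide before lysis. The methods describe 3 independent RNA preparations, but the labels do not say whether these came from separate cultures, so p-values measure the spread between these preparations. The labels of the control untranslated replicates 1 and 2 share a sample number, and these 2 arrays may hold 1 sample. With both averaged to 1 array, 23 member probes fell and 2 rose in the shift described below, and 8 were higher and 49 lower in the high than in the untranslated pool of control cells, close to the values given there. All groups come from 1 cell line. Each array was labelled from the same amount of RNA and then normalized, so a value gives the share of a transcript within its pool and not how much RNA the pool held.

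Ribosomal protein mRNAs are the classical TOP mRNAs. Their first transcribed base is a C, followed by an unbroken run of pyrimidines (C or T), the terminal oligopyrimidine tract. Through this tract their translation is under the control of the kinase mTOR: when mTOR complex 1 is active they are loaded onto polysomes, and when it is inhibited the cap-binding protein LARP1 and the 4E-BP proteins keep them out of translation as a group. They are among the most abundant mRNAs of a growing cell, and most of them have short reading frames, which leave room for few ribosomes. Mitochondrial ribosomal proteins are encoded by other nuclear genes, whose mRNAs are not TOP mRNAs.

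Annotated starts were available for 44 of the 56 genes in RefSeq promoter sequences of the build GRCh38.p14. A start with a C at its first base followed by at least 4 pyrimidines was found for 31 of these 44 genes (70.5%), against 1404 of 27305 genes in the same table (5.14%). Counted over windows, 31 of 53 member windows (58.5%) and 4.07% of all 35116 windows held it. The search read the transcribed strand at the annotated start base only. The windows below hold 15 bases before the start and 15 from it on, and are shown because the probes of these genes differ in the shift described further on. Capitals mark the unbroken pyrimidine run at the start. Windows of RPL4, RPL10A, RPL32 and RPS7 are not shown. These genes also had a probe that fell in the shift, and none of their annotated starts was of this kind. The first 6 windows shown are of genes with a probe that fell in the shift.
RPL13A: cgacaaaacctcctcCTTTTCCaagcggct
RPS9: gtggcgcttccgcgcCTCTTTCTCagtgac
RPS3: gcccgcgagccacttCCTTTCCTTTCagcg
RPLP0: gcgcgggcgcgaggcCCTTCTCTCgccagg
RPL7A: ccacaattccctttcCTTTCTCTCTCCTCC
RPL3: gtaaggccgaccggcCTCTaccggcgggat
Windows of 4 genes with the same kind of start whose probes did not pass the test for the shift follow, RPL22L1 among them.
RPS27: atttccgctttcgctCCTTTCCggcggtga
RPL38: aacggaagtctcgttCTTTTTCgtcctttt
RPS21: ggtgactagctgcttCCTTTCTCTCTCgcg
RPL22L1: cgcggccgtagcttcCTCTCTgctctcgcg
The last windows belong to the 2 genes whose probes rose in the shift, and none of them has a C at the start base.
RPL26L1: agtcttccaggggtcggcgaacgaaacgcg
RPL26L1, other start: ggcggggcggcggccacaaacccgcaggca
RPL7L1: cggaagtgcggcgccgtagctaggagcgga
On GRCh38.p14 the windows of RPL13A and RPS9 lie at chr19:49487593-49487622 and chr19:54200843-54200872, those of RPS3 and RPL7A at chr11:75399503-75399532 and chr9:133348203-133348232, and those of RPS27, RPL38 and RPS21 at chr1:153990747-153990776, chr17:74203663-74203692 and chr20:62387088-62387117, all on the plus strand. The windows of RPLP0, RPL3 and RPL22L1 lie on the minus strand, at chr12:120201097-120201126, chr22:39319609-39319638 and chr3:170870181-170870210. The RPL26L1 windows (chr5:172958714-172958743 and chr5:172958865-172958894) and the RPL7L1 window (chr6:42879601-42879630) are on the plus strand. The pyrimidine run of RPL3 is 4 bases long, 1 short of the motif as searched.

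All values below are log2 signals after quantile normalization of the mRNA probes, so that each array has the same median of 6.50 and the same maximum of 18.91, and differences are on the log2 scale. The median member lay between the 98.6th and the 99.6th percentile of the mRNA probes on every array. No probe spot was saturated, but differences between such bright probes are compressed by the normalization. Between 73 and 77 of the 77 member probes were well above background on each array. OS low replicate 3 stood apart, with 95.4% of mRNA probes well above background against 43.4% to 67.7% on the other 23 arrays. The fibroblast markers COL1A1, COL3A1, THY1 and LUM were well above background on all 24 arrays, the epithelial marker EPCAM on 8 of 24, and the 3 probes of the leukocyte marker PTPRC on 23, 1 and 1. Calls were made with limma, at a p under 0.05 after Benjamini-Hochberg adjustment over all tested probes. Ribosomal protein genes have many processed pseudogenes of similar sequence, and a hybridised probe may also report these.

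In total RNA, no ribosomal protein probe passed the test upon OS. None of 76 tested probes was called, while 3.07% of all 10630 mRNA probes tested were called higher and 3.06% lower. Without adjustment, 3 member probes had a p under 0.05, all of them higher upon OS, and 62 of the 76 differences were positive. Over all 10630 mRNA probes, 791 were higher and 876 lower at this p, and 5067 differences were positive. A fit of the arrays of total RNA alone called 2 member probes higher and 1 lower, and without OS low replicate 3 the fit called 1 higher. The median member differed by 0.07, against -0.02 over all mRNA probes, and by 0.04, 0.06 and 0.10 within the 3 slides. In a bulk sample, fewer cells that hold an mRNA and less of it per cell cannot be told apart.

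RPL13A, a large-subunit protein, shows how close the arrays were. In total RNA one of its probes read 16.15, 16.20 and 16.24 in control and 16.33, 16.28 and 16.31 upon OS, a difference of 0.11 (SE 0.11, adjusted p 0.767). RPLP0, the base of the ribosomal stalk, read 17.92, 17.94 and 17.92 against 17.90, 18.00 and 17.90. The 2 differences of the greatest size each rested on a single spot. RPS19, a small-subunit protein, read 8.69, 17.28 and 17.27 in control and 17.46, 17.52 and 17.51 upon OS, so that a single array made the difference of 3.09 (SE 1.36, adjusted p 0.236). One probe of RPL21 read 14.64, 14.51 and 6.03 upon OS against 14.34 to 14.44 in control, a difference of -2.68 (SE 1.35, adjusted p 0.333).

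**Figure D1:**
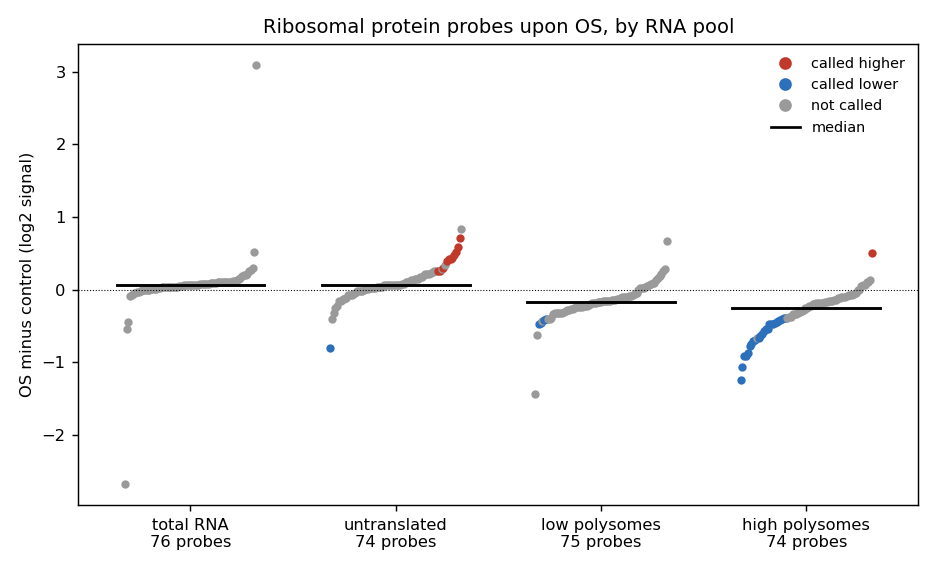
Difference of OS minus control (log2 signal, vertical axis) for every tested member probe in total RNA, the untranslated, the low and the high pool, with probes sorted within each pool. Red points were called higher, blue points lower and grey points neither, and the black bar is the median. No probe is coloured in total RNA, 11 are red in the untranslated pool and 25 are blue in the high pool.

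In control cells, most ribosomal protein probes were lower in the high than in the untranslated pool. Of 74 tested probes, 49 were lower and 9 were higher, while 31.0% of all 9880 mRNA probes tested were called lower and 42.2% higher. The median difference was -1.06, against 0.35 over all mRNA probes. Taken over 3 array pairs, each a high and an untranslated array of the same replicate number, the median over all 77 member probes, tested or not, was -1.09, -0.97 and -1.02. The numbers are not known to tie arrays to 1 culture, so an SD over such pairs depends on how the arrays are matched, while the SEs of the fit do not. Within the 3 slides the median over the 74 tested probes lay between -1.13 and -0.95. The level of all probes depends on the scaling, since without normalization the median over all mRNA probes was 2.85 and that over members 0.05, with 28 probes called higher and 25 lower. Relative to all mRNA probes the members were lower by 1.41 in the main setting, and their difference from all mRNA probes lay between -2.80 and -1.41 under the other scalings of the signal. The filter on dim probes also mattered. With only probes well above background on every array of both groups, the median over all mRNA probes was 0.00 and the difference -1.06. Without a filter these values were -0.10 and -0.93.

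The members spread widely along the gradient, from -4.98 to 1.14. At the light end stood RPS29, a short small-subunit protein with a zinc-binding site. Its probe for the transcript NM_001030001 read 12.85, 12.56 and 12.66 in the untranslated and 7.82, 7.68 and 7.62 in the high pool, a difference of -4.98 (SE 0.16, adjusted p 2.52e-14). Its other probe, which spans a splice junction of NM_001032, had a difference of -3.15 (SE 0.13). In both, all high-pool arrays lay below all untranslated arrays.

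RPL23A, a large-subunit protein at the exit of the peptide tunnel, followed with -3.95 (SE 0.13), and RPL39, a very short protein that lines this tunnel, with -3.81 (SE 0.11) and -2.74 (SE 0.10) by its 2 probes. RPS27 (untranslated 18.68, 18.68 and 18.59, high 16.81, 16.81 and 16.48) had a difference of -1.96 (SE 0.13, adjusted p 2.31e-10). RPL38 (untranslated 18.11, 18.03 and 18.11, high 17.02, 16.93 and 17.14) had a difference of -1.05 (SE 0.10). The control groups of these probes did not overlap.

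At the heavy end stood RPL3, which lies close to the peptidyl transferase centre. Its probe at chr22:39710186-39710722 (GRCh37, minus strand, across a splice junction) read 16.74, 16.83 and 16.94 in the untranslated and 18.08, 17.92 and 17.92 in the high pool, a difference of 1.14 (SE 0.10, adjusted p 1.39e-08). The other RPL3 probe gave 1.11 (SE 0.09). RPL5, which binds the 5S rRNA together with RPL11, was higher in the high pool by 1.05 (SE 0.09) and 0.40 (SE 0.15) by its 2 probes. RPL14 (1.02), RPL4 (0.72), RPL7A (0.64), RPL10A (0.47) and RPS3A (0.31) were the other members called higher. RPL11 itself was lower in the high pool (-0.33, SE 0.09, adjusted p 0.00397), but without normalization its value was 0.17, against a median of 2.85 over all mRNA probes. By gene, 36 of 55 had a lower probe, 7 a higher one and 12 no call.

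The 2 ends hold long and short proteins. After these values were seen, a list of 9 genes of long ribosomal proteins (RPL3, RPL4, RPL5, RPL6, RPL7A, RPLP0, RPS2, RPS3, RPS3A) and one of 8 genes of short ones (RPL37A, RPL38, RPL39, RPL39L, RPS21, RPS27, RPS28, RPS29) were drawn up from general knowledge of the proteins, with no length computed, so that they describe the pattern and do not test it. Of the 11 probes of the long list, 7 were higher and 1 was lower in the high pool of control cells, with a median of 0.40. The median over all mRNA probes was 0.35 in the main setting, and 0.00 with only probes well above background on every array of both groups. The long list is not complete. RPL7L1, a relative of RPL7, is not in it and had a difference of 0.07. The 3 probes of RPL7, a protein of similar size to RPS3, were lower in the high pool (-0.71, -1.23 and -2.24), and with RPL7 and RPL3L added, 7 of 15 probes were higher and 4 lower and the median was -0.19. Of the 12 tested probes of the short list, all were lower, with a median of -2.05. Under the other scalings of the signal the medians lay between 0.21 and 1.43 for the long list and between -2.56 and -1.35 for the short one. Relative to all mRNA probes the long list had a difference of 0.05 in the main setting, which turned to -0.24 with all probes quantile-normalized together and to -1.42 without normalization or after scaling to the 75th percentile. By subunit, 1 of 28 small-subunit probes was higher and 18 were lower (median -1.09), against 8 and 31 of 46 large-subunit probes (median -0.88).

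**Figure D2:**
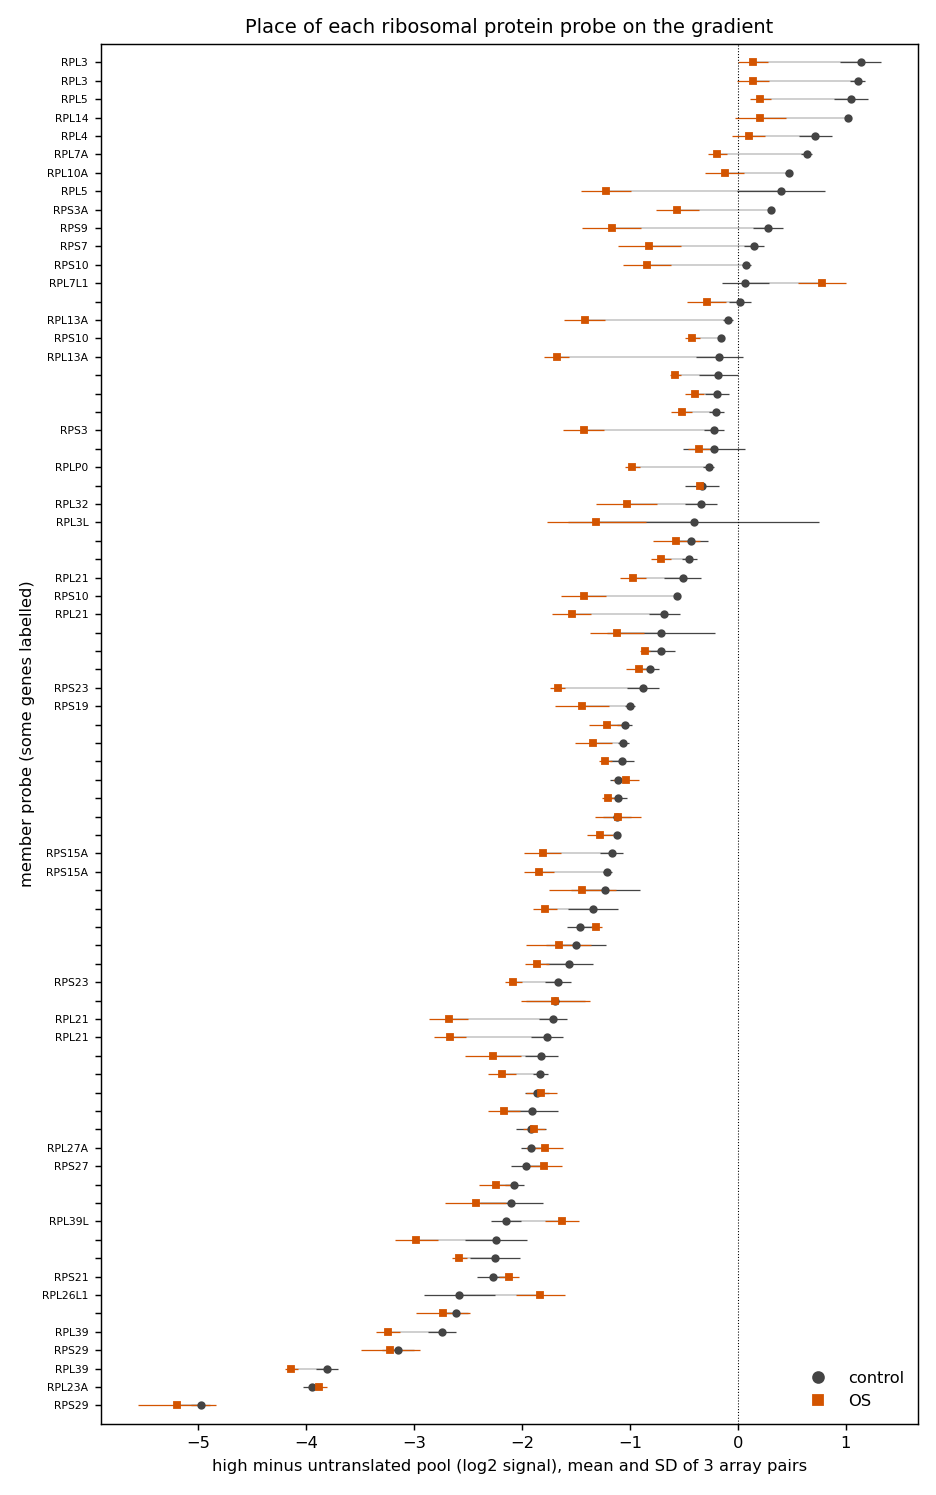
High pool less untranslated pool (log2 signal, horizontal axis, mean and SD of 3 array pairs) for each of the 74 tested member probes, sorted by the control value, with control as dark circles and OS as orange squares, and names for genes with a call in the shift or at an end of a comparison. Control values run from -4.98 for RPS29 to 1.14 for RPL3, and the OS mean lies below the control mean for 62 of 74 probes.

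Between polysome pools of control cells, the members leaned to the light side. Of 75 tested probes, 49 were lower in the high than in the low pool and 6 were higher, while 25.5% of all 10463 mRNA probes tested were called lower and 25.0% higher. The median was -0.81, against 0.03 over all mRNA probes, and -0.80, -0.81 and -0.75 within the slides. RPL4, a long protein that reaches into the peptide tunnel, had the most positive difference, with 16.72, 16.52 and 16.48 in the low and 17.69, 17.63 and 17.40 in the high pool (1.00, SE 0.11, adjusted p 4.69e-07). Both RPL3 probes (0.84 and 0.79) and both RPL5 probes (0.78 each) were also higher. Without normalization these 5 values, that of RPL4 included, lay between -0.13 and -0.05, against a median of -0.56 over all mRNA probes. The most negative were again probes of RPS29 (-2.41), RPL23A (-2.40) and RPL39 (-2.37).

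Upon OS, 18 of 55 ribosomal protein genes had a probe that fell in the high pool relative to the untranslated pool. The shift is the value of the high pool less that of the untranslated pool in OS cells, minus the same quantity in control. Of 74 tested member probes, 24 fell in this shift and 2 rose, while 8.03% of all 10369 mRNA probes tested were called lower and 8.04% higher. The median shift was -0.33, against 0.02 over all mRNA probes, and 62 of 74 values were negative, against 5044 of 10369. Within the 3 slides the median was -0.33, -0.27 and -0.40, with 61 negative values in each. The other 48 probes were not called, and 35 genes had no called probe. The shift and the place on the control gradient share the control arrays, so that the 2 sets of values are given side by side without a measure of their relation.

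This count depends on the scaling and on 1 array. When the arrays were scaled to their 75th percentile, no member was called and the median was -0.56. With OS low replicate 3, which is no part of this comparison but enters the estimate of the spread, left out of that fit, 21 probes fell. In the main setting 30 fell without that array.

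The change upon OS was then taken pool by pool. In the untranslated pool 11 of 74 probes rose and 1 fell upon OS, while 15.8% of all 8025 mRNA probes tested were called higher and 15.7% lower, so the share of members called higher was close to that of all probes. In the high pool 25 of 74 fell and 1 rose, against 2.83% and 3.57% of 10266. In the low pool 4 of 75 fell and none rose, against 5.45% lower and 4.42% higher of 10806, a share close to that of all probes. Without adjustment, 1 of 75 member probes was higher and 21 were lower in the low pool at p under 0.05. Over all 10806 mRNA probes these counts were 1068 and 2287. Without OS low replicate 3 limma called 2 member probes lower. The median change was 0.07 in the untranslated, -0.17 in the low and -0.25 in the high pool, against -0.04, -0.18 and -0.01 over all mRNA probes. In the high pool the median was negative under each scaling, between -0.44 and -0.24, but no probe was called after scaling to the 75th percentile.

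Upon OS 64 of 74 probes were lower in the high than in the untranslated pool and 1 was higher, while 28.1% of all 10189 mRNA probes tested were called lower and 40.7% higher. The median over all 77 member probes, tested or not, was -1.34, -1.21 and -1.52 in the 3 OS array pairs (mean -1.36, SD 0.15), against a mean of -1.02 (SD 0.06) in control. For the low against the untranslated pool it was -0.41 (SD 0.05) upon OS and -0.14 (SD 0.05) in control.

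The largest fall was that of RPL5, whose protein, with RPL11, also binds and restrains the ubiquitin ligase MDM2. Its probe at chr1:93299130-93299189 (GRCh37, plus strand) read 13.87, 14.01 and 14.19 in the untranslated pool of control cells and 14.59, 14.87 and 14.73 upon OS. The high pool gave 14.70, 14.37 and 14.20 in control and 13.52, 13.76 and 13.25 upon OS. Control and OS arrays did not overlap in either pool, while total RNA read 13.74 to 13.94 in control and 13.83 to 13.97 upon OS. The difference between high and untranslated went from 0.40 ± 0.41 to -1.22 ± 0.23 (SD, n = 3 array pairs), and the shift was -1.62 (SE 0.22, adjusted p 0.000162 in limma). The other RPL5 probe, at chr1:93303074-93303132, read 17.38 to 17.50 in total RNA of control cells, and its shift was -0.84 (SE 0.14, adjusted p 0.000717).

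RPL13A is also known for leaving the ribosome to silence inflammatory mRNAs in the GAIT complex. Its probe at chr19:49993522-49993758 (GRCh37, plus strand, across a splice junction) read 16.41, 16.25 and 16.40 in the high pool of control cells and 15.10, 15.23 and 14.99 upon OS. In the untranslated pool the values were 16.33, 16.61 and 16.63 against 16.79, 16.78 and 16.78. OS and control did not overlap in either pool, but the gap was wide only in the high pool (-1.25, SE 0.10, adjusted p 2.36e-07), while the untranslated pool missed the threshold (0.26, adjusted p 0.0533). The shift was -1.51 (SE 0.15, adjusted p 5.79e-06), and -1.33 (SE 0.15) by the other RPL13A probe.

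RPS9, a primary binder of the small-subunit rRNA, read 15.01, 14.97 and 15.09 in the untranslated pool of control cells and 15.52, 15.64 and 15.67 upon OS. The high pool gave 15.42, 15.11 and 15.38 against 14.22, 14.78 and 14.31. The groups were apart in both pools, and the shift was -1.45 (SE 0.18, adjusted p 7.24e-05).

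RPS3, which sits at the mRNA entry of the small subunit and is also known as a DNA repair endonuclease and an NF-kappaB partner, read 15.25, 15.41 and 15.43 in the high pool of control cells and 14.40, 14.67 and 14.26 upon OS. Its shift was -1.21 (SE 0.16, adjusted p 9.62e-05). The place of RPL13A and RPS3 on the control gradient was near 0, with values of -0.17 and -0.09 for RPL13A and -0.22 for RPS3, none of them called, and it turned positive under some other scalings of the signal.

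**Figure D3:**
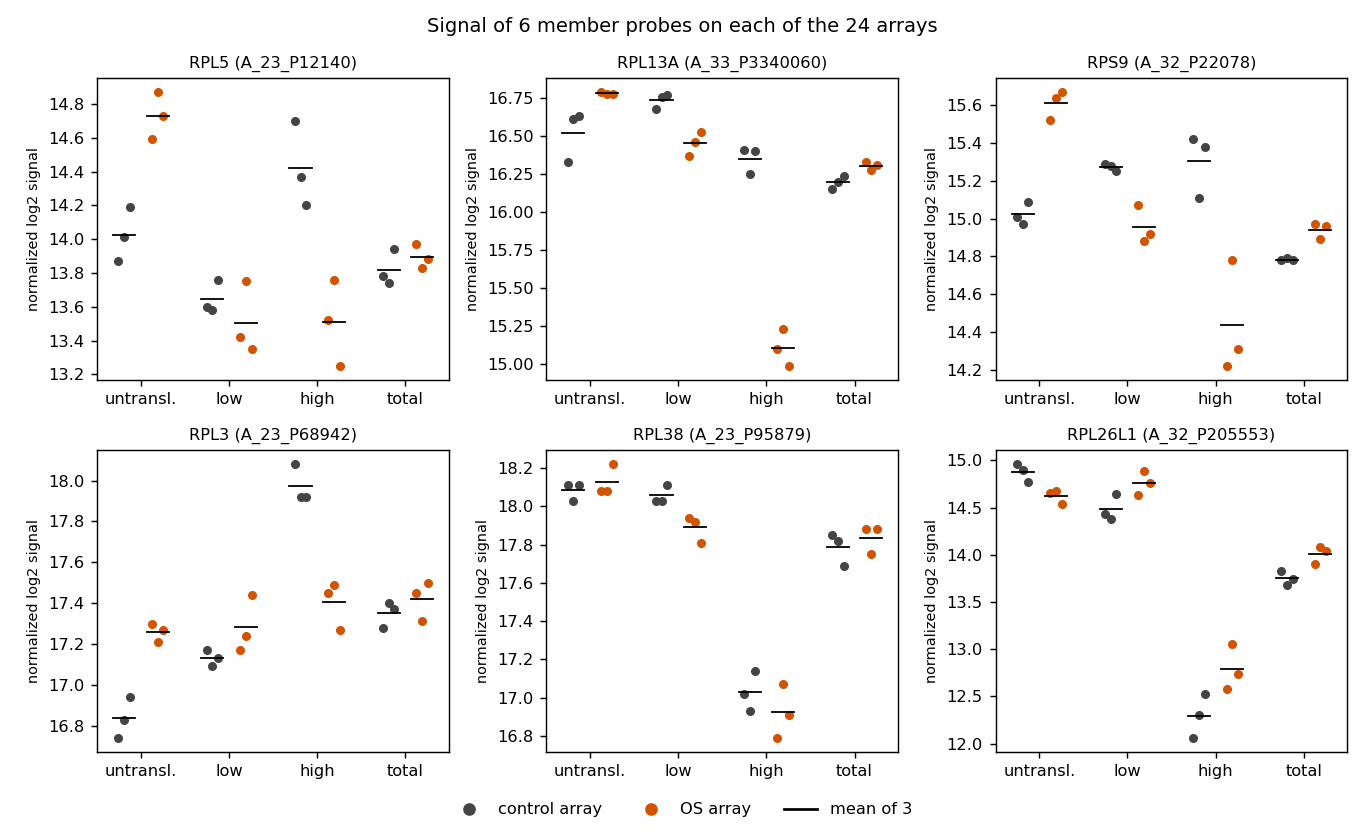
Normalized log2 signal of 6 member probes (RPL5, RPL13A, RPS9, RPL3, RPL38 and RPL26L1) on each of the 24 arrays, in the untranslated, low and high pools and in total RNA, with control arrays dark, OS arrays orange and the mean of 3 as a bar. RPL5, RPL13A and RPS9 drop in the high pool upon OS (RPL13A from 16.41, 16.25 and 16.40 to 15.10, 15.23 and 14.99), the RPL38 arrays of both conditions overlap there, and RPL26L1 rises there.

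RPL3 fell from the heavy end. In the high pool its first probe went from 18.08, 17.92 and 17.92 to 17.45, 17.49 and 17.27, and in the untranslated pool from 16.74, 16.83 and 16.94 to 17.30, 17.21 and 17.27. The difference between the pools went from 1.14 ± 0.19 to 0.14 ± 0.14 (SD, n = 3 array pairs), a shift of -0.99 (SE 0.15, adjusted p 0.000412), and the other probe gave -0.97 (SE 0.13). The remaining probes that fell were those of RPS7 (-0.97), RPL21 (-0.96 and -0.85), RPS10 (-0.91 and -0.87), RPS3A (-0.88), RPL7A (-0.83), RPL14 (-0.80), RPS23 (-0.79), RPLP0 (-0.71), RPL32 (-0.68), RPS15A (-0.65 and -0.64), RPL4 (-0.62), RPL10A (-0.59) and RPL39 (-0.50). For each of the 24 called probes the 3 OS array pairs lay below the 3 control pairs. The calls were made on these same arrays, so this separation is no further support for them.

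Of the 9 genes of long ribosomal proteins, 9 of 11 probes fell in the shift and none rose, with a median of -0.84. None of the RPL7 probes (-0.21, -0.41 and -0.73) was called, and with RPL7 and RPL3L added 9 of 15 probes fell, with a median of -0.83. RPL7L1, a relative of RPL7 left out of this list and of the extended one, rose (0.71). The list was drawn up after the control values were seen, and the shift subtracts those values. Of the 12 tested probes of the short list, 1 fell, that of RPL39, and the median was -0.08. In the high pool alone 8 of the 11 probes of the long list fell (median -0.46). Under the other scalings the median shift lay between -1.37 and -0.86 for the long list and between -0.35 and -0.00 for the short one, with no call in either after scaling to the 75th percentile. RPS2 (-0.21) and RPL6 (-0.13) were the long-list genes whose probes did not pass. Both probes are close to the brightest of the array, with RPS2 at 18.68 to 18.81 in total RNA of control cells and at the array maximum of 18.91 on all 3 OS arrays of the untranslated pool.

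**Figure D4:**
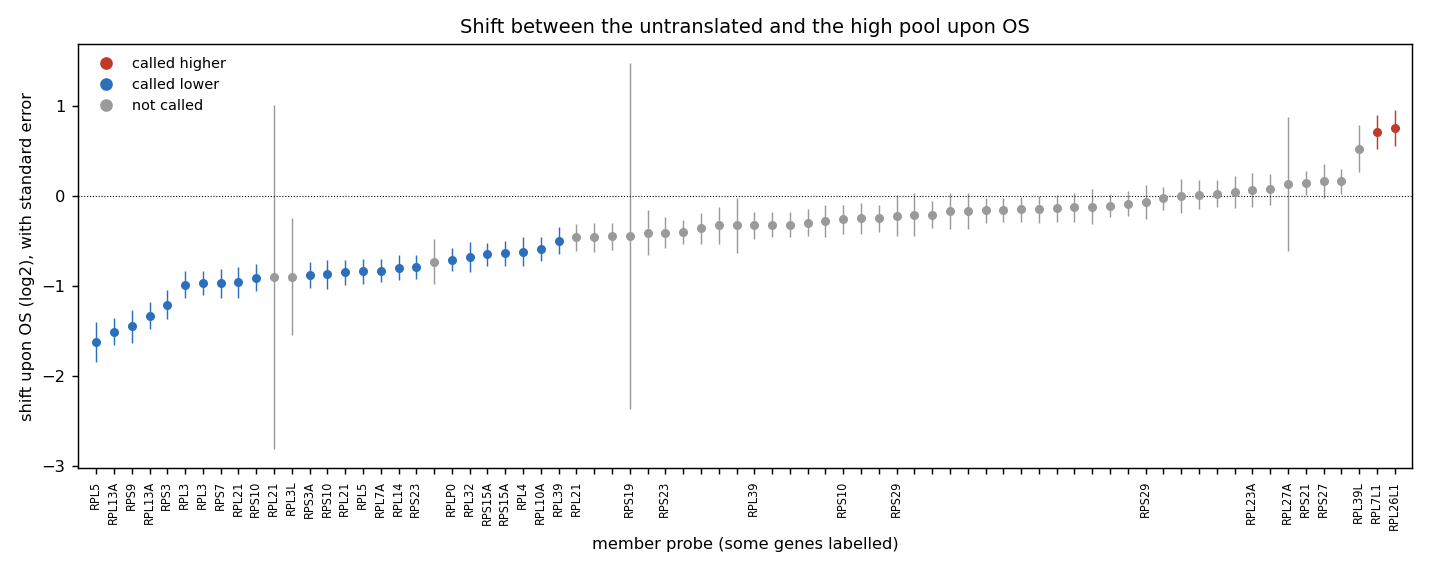
Shift of the high pool against the untranslated pool upon OS (log2, vertical axis, with standard error) for the 74 tested member probes in order of size, blue where called lower, red where called higher and grey where neither, with only some genes named. The series runs from -1.62 for RPL5 to 0.75 for RPL26L1, and RPS19 and a probe of RPL21 have wide errors, each with a single deviating spot in total RNA.

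Probes of the same gene mostly had the same call. Of 15 genes with several tested probes, 11 had probes alike, and RPL21, RPL39, RPS10 and RPS23 did not. A differing call need not mean a differing value. The RPL21 probe with the deviating spot in total RNA was not called, though its high minus untranslated value went from -1.77 in control to -2.67 upon OS. That spot is no part of this comparison but enters the spread of the probe. RPS10, a small-subunit protein near the mRNA entry, had probes at -0.91 and -0.87 that were called and another, at chr6:34385237-34385296 (GRCh37, minus strand), at -0.26 that was not. One RPL21 probe that fell (-0.96) is placed by the array design on chromosome 10, at chr10:29188349-29188408, and not at the RPL21 gene on chromosome 13, so that its target is uncertain.

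The stalk proteins differed. RPLP0 had a shift of -0.71 (SE 0.13, adjusted p 0.00246), with 17.60, 17.72 and 17.58 in the high pool of control cells and 17.26, 17.23 and 17.05 upon OS, and it fell also in the low pool, from 18.30, 18.30 and 18.20 to 17.90, 17.85 and 17.67. RPLP1, an acidic protein bound to RPLP0, had a shift of 0.07 (SE 0.17), with 17.35, 17.34 and 17.35 against 17.21, 17.26 and 17.39 in the high pool. The difference between these 2 probes was not tested.

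Among proteins known for roles outside the ribosome, 5 of 10 probes fell in the shift and none rose, which were the probes of RPL5, RPL13A and RPS3. Over all members 24 of 74 fell, and over all mRNA probes 8.03%. RPL11, the partner of RPL5 in binding MDM2, had a shift of -0.03 (SE 0.13), with 16.99, 17.11 and 17.11 in the high pool of control cells and 17.03, 17.11 and 17.06 upon OS. RPL23, which also binds MDM2, had -0.16 (SE 0.14) and -0.33 (SE 0.30), and RPL26, which binds the p53 mRNA, -0.25 (SE 0.15) and 0.04 (SE 0.18), none of them called. The second RPL23 probe, designed for another transcript, read 8.59 to 8.79 in total RNA of control cells and has the widest error of these.

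The paralogs of ribosomal proteins held both probes that rose. RPL26L1, a close relative of RPL26, read 12.06, 12.30 and 12.53 in the high pool of control cells and 12.58, 13.06 and 12.74 upon OS. In the untranslated pool it read 14.96, 14.90 and 14.77 against 14.65, 14.68 and 14.54. The groups did not overlap in either pool, its difference between high and untranslated went from -2.58 ± 0.33 to -1.83 ± 0.23 (SD, n = 3 array pairs), and the shift was 0.75 (SE 0.20, adjusted p 0.0194). The call was lost without control high replicate 1, OS high replicate 2 or OS untranslated replicate 3, with shifts of 0.62 to 0.71 and adjusted p of 0.0504 to 0.0662.

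RPL7L1, a relative of RPL7 that works in ribosome assembly, differed upon OS in the untranslated pool. There it read 12.11, 12.24 and 12.08 in control and 11.42, 11.40 and 11.18 upon OS (-0.81, adjusted p 0.000143), while the high pool overlapped, with 12.05, 12.19 and 12.42 against 11.95, 12.28 and 12.11. The shift was 0.71 (SE 0.19, adjusted p 0.0225), and the call was lost without any 1 of control untranslated replicate 2, control high replicates 1 and 2, OS untranslated replicate 3 and OS high replicates 2 and 3, with shifts of 0.63 to 0.71 and adjusted p of 0.0537 to 0.0741. After scaling to the 75th percentile neither paralog was called. RPL39L (0.52, adjusted p 0.262), RPL22L1 (-0.00, SE 0.19) and RPL3L (-0.90, SE 0.65) were not called. RPL3L, the muscle form of RPL3, was dim, at 5.70 to 6.75 in total RNA of control cells.

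In the shift of the low against the untranslated pool, 3 of 75 probes fell and none rose, while 2.46% of all 10858 mRNA probes tested were called lower and 0.682% higher. They were RPS9 (-0.91), RPLP0 (-0.72) and a probe of RPL5 (-0.62). The median was -0.28, against -0.18 over all mRNA probes, a difference of -0.10. This difference turned to 0.06 when all probes were quantile-normalized together, and to 0.07 in the deposited table. With signals left unnormalized it was -0.62, as it was with arrays brought to a common 75th percentile, and with normexp it was -0.14. It was -0.27 with no filter on dim probes, and -0.17 with only probes well above background throughout the groups compared. Without OS low replicate 3, 7 probes fell and none rose, and without control low replicate 2 none was called.

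The members were also divided by their annotated start. Of 41 tested probes of genes with such a start, 14 fell in the shift and none rose, with a median of -0.36. Of 16 probes of genes without one, 6 fell and 2 rose, with a median of -0.27, and of 17 probes of genes with no annotated start here 4 fell, with a median of -0.33. The difference between these sets was not tested. RPS27, RPL38 and RPS21 carry runs like those of RPS9 and RPL13A, and their shifts were 0.16 (SE 0.19), -0.15 and 0.14 (SE 0.13). High-pool values of RPL38 were 17.02, 16.93 and 17.14 in control and 16.79, 17.07 and 16.91 upon OS.

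Other mRNAs known to carry a TOP tract were read beside the members, most of them of translation factors, with NAP1L1, a nucleosome assembly protein, and HNRNPA1, a splicing protein. Of 14 tested probes of 10 genes, 10 fell in the shift and none rose, against 8.03% and 8.04% of all mRNA probes. The median was -0.77, and all 14 values were negative. Under the other scalings the median lay between -1.05 and -0.78, and none was called after scaling to the 75th percentile. The 10 were probes of EEF1A1 (-1.58 and -0.74), EEF1D (-1.50), NAP1L1 (-1.09), EIF3F (-0.93), EIF4B (-0.91 and -0.62), PABPC1 (-0.80), EIF3H (-0.72) and HNRNPA1 (-0.68). EEF1D, an exchange factor of elongation factor 1, read 16.76, 16.79 and 16.75 in the high pool of control cells and 16.01, 16.14 and 15.78 upon OS. None of the 14 was called in total RNA, and 9 fell in the high pool, against 2.83% of all mRNA probes. In control cells, 6 of the 14 were higher and 5 lower in the high than in the untranslated pool (median 0.41). Over all mRNA probes 42.2% were higher and 31.0% lower there (median 0.35).

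The ribosomal proteins RPSA and RACK1 (GNB2L1 on the array), whose names are outside the rule, also fell. RACK1, a scaffold on the small subunit, read 17.37, 17.23 and 17.17 in the high pool of control cells and 16.74, 16.78 and 16.23 upon OS, a shift of -1.31 (SE 0.20, adjusted p 0.000549). Control and OS did not overlap. The 2 RPSA probes had shifts of -1.29 (SE 0.13) and -1.41 (SE 0.17).

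The mRNAs of mitochondrial ribosomal proteins had mostly positive shifts, 31 of 42, against 5325 of 10369 over all mRNA probes. Of the 42 tested probes of this list of 39 genes, 9 rose and 2 fell in the shift, against 8.04% and 8.03% of all mRNA probes. Their median was 0.33. The median stayed above 0 under each scaling, between 0.22 and 0.30 in the other ones, but the number that rose dropped to 3 with all probes quantile-normalized together and to 0 after scaling to the 75th percentile. In control cells 13 of 41 were higher and 20 lower in the high pool (median -0.32), but this median was above 0 under each other scaling (0.16 to 2.38). The median over all mRNA probes lay between 0.73 and 2.85 under these scalings. Over all mRNA probes 42.2% were higher and 31.0% lower there. In total RNA none of the 41 mitochondrial probes was called. Without adjustment, 2 of the 41 had a p under 0.05, both higher, against 791 higher and 876 lower of all 10630 mRNA probes.

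**Figure D5:**
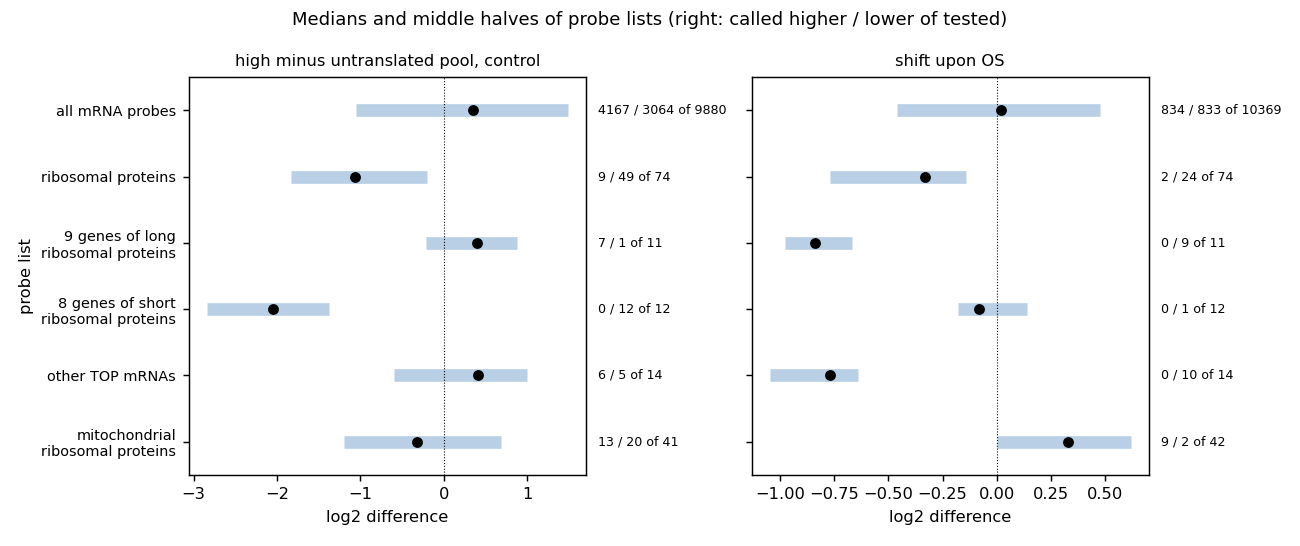
Median (point) and range from the lower to the upper quartile (bar) of the log2 difference between the high and untranslated pools of control cells (left) and of the shift upon OS (right), for all mRNA probes, the ribosomal proteins, the 9 genes of long and 8 genes of short ribosomal proteins, other TOP mRNAs and mitochondrial ribosomal proteins. The numbers beside each bar are probes called higher and lower of those tested, and the median shift runs from -0.84 for the long ribosomal proteins to 0.33 for the mitochondrial ones.

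Of 19 tested probes of 14 genes of regulators that act on TOP mRNAs, 3 rose, 5 fell and 11 were not called in the shift, against 8.04% higher and 8.03% lower over all mRNA probes. SESN2, a stress-induced inhibitor of mTOR complex 1, was the only one called higher in total RNA (1.67, SE 0.17, adjusted p 1.44e-06), and in the high pool it rose from 9.61, 9.62 and 9.79 to 11.13, 11.20 and 10.90. RPTOR, the substrate-binding subunit of mTOR complex 1, fell in total RNA (-0.53, SE 0.14, adjusted p 0.0204). LARP1 mRNA had a shift of -1.30 (SE 0.21, adjusted p 0.000753), which came from the untranslated pool, with 11.93, 11.99 and 12.15 in control and 13.27, 13.27 and 13.32 upon OS, while the high pool did not pass (-0.04). MTOR (-1.34), TSC2 (-1.31), RPTOR (-0.61) and TSC1 (-0.57) also fell in the shift, and EIF4E (1.35), RHEB (1.06) and SESN2 (1.00) rose. These are mRNA values and hold no information on the activity of the proteins.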

How the data were processed

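RNA of MRC5 cells was hybridised to 24 single-colour Agilent arrays that carry 44002 lncRNA and 17535 mRNA probes, in 8 groups of 3. The authors deposited scanner output of Feature Extraction 10.7.3.1, from which the processed signal was read, an intensity from which the software had already subtracted background. The authors also deposited a table of normalized log2 values, which differs by at most 0.0014 from quantile normalization of all probes together. It was used as an alternative.

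Here the log2 of the processed signal was quantile-normalized, the lncRNA probes and the mRNA probes each on their own, without the 178 probes of which any spot had been marked as an outlier. Group means were fitted over 24 arrays with limma 3.58.1 in R 4.3.3. A probe entered a test if all arrays of 1 or more of the groups compared read it as well above background, and p-values were adjusted by Benjamini-Hochberg over lncRNA and mRNA probes together. The scripts were tested on simulated data. The number of arrays limits the precision.

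The named genes are the stalk proteins, the paralogs, proteins known for roles outside the ribosome, and the 3 probes at each end of a comparison. Other ribosomal proteins given with values, and the lists of long and short proteins, were chosen after their values were seen. The members and the other lists were chosen with earlier results of these data known. Start windows are RefSeq sequences of GRCh38.p14, while probe positions are those of the array design on GRCh37. Alternatives changed the normalization, the background correction, the filter, the blocks and the arrays used. Scaling to the 75th percentile with OS low replicate 3 left out was added after seeing the data.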

Additional observations from a re-analysis of the deposited data

How the results depend on the processing

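Settings are compared by the number of member probes called higher and lower and by the median log2 difference. For total RNA, fitting only the arrays compared gave 2 higher and 1 lower, and without normalization the median was -0.05. For the high against the untranslated pool of control cells, 17 were higher (median -0.71) with all probes quantile-normalized together, 2 (-1.16) after scaling to the 75th percentile, 14 (-0.68) after normexp and 16 (-0.73) in the deposited table, while no normalization gave 28 higher, 25 lower and 0.05. For the high against the low pool, no probe was higher without normalization (median -1.56) or after scaling to the 75th percentile (12 lower, -0.47), and the median was -0.70 with all probes quantile-normalized together, -0.68 after normexp and in the deposited table, and -0.76 with the probes of a gene averaged. For the shift of the high pool, none was called after scaling to the 75th percentile (median -0.56), 1 was higher without normalization (-0.62) or with only the arrays compared, and 0 without the filter. Scaling to the 75th percentile without OS low replicate 3 gave 0 higher, 21 lower and -0.56. For the shift of the low pool, 9 were lower with all probes quantile-normalized together and in the deposited table, 29 without normalization (median -0.64), 17 after normexp (-0.39), 15 with the strict filter, 1 without the filter, and 0 with only the arrays compared or after scaling to the 75th percentile (-1.56).

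With 1 array left out, total RNA had 0 to 1 higher, 0 lower and a median of 0.05 to 0.08. The high against the untranslated pool had 8 to 10 higher, 47 to 51 lower and -1.08 to -1.02. The high against the low pool had 6 higher, 47 to 49 lower and -0.85 to -0.76. The shift of the high pool had 0 to 2 higher, 23 to 30 lower and -0.40 to -0.28, and that of the low pool 0 higher, 0 to 7 lower and -0.31 to -0.26. The counts of 1, 30 and 7 came without OS low replicate 3.

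Of single genes, the high against the untranslated pool of control cells turned to 0.17 for RPL11, 0.61 for the second RPL23 probe, 0.76 for RPL39L, 1.57 for RPL3L and 0.25 for RPLP0 without normalization. The median over all mRNA probes was 2.85 in that setting. The same comparison turned to 0.27, 0.56 and 0.27 for one RPL13A probe (all probes together, no normalization, normexp), to 0.25, 0.73 and 0.23 for the other (all probes together, no normalization, deposited table) and to 0.27, 1.43 and 0.25 for RPS3 in these last settings. The high against the low pool turned without normalization to -0.07 and -0.13 for RPL3, -0.05 for RPL4 and -0.12 and -0.13 for RPL5, where the median over all mRNA probes was -0.56. A sign that changed where neither setting made a call is not listed.

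The replicate numbers are not known to pair the arrays. Deviations of arrays with the same number correlated at -0.35 to 0.46 (median 0.10, 84 pairs) and others at -0.60 to 0.54 (median -0.05, 168 pairs), while the median was 0.14 within and -0.07 between slides. With the replicate block the shift of the high pool had 23 lower and 2 higher with a median of -0.33, and no other count of member probes changed. The cause of these changes was not tested.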

Other observations

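Some probes designed for other transcripts of ribosomal protein genes were near background on many arrays. The RPS27 probe for ENST00000392558 (chr1:153963726-153963785, GRCh37, plus strand) was well above background on 7 of 24 arrays. In total RNA it read 7.43, 7.11 and 7.47 in control and 6.81, 6.83 and 6.75 upon OS, a difference of -0.54 (SE 0.59, adjusted p 0.838). The control arrays lay above the OS arrays. The RPS21 probe for ENST00000370562 (chr20:60963037-60963096, plus strand) was well above background on 16 of 24 arrays. In the untranslated pool it read 5.25, 3.19 and 4.97 in control and 5.96, 6.89 and 7.14 upon OS, where it was not tested because no group of that comparison had it above background throughout.

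RPL27A, a large-subunit protein, read 6.07 on OS low replicate 3 against 9.07 and 9.44 on the other OS arrays of the low pool. It was among the 3 members with the lowest shift of the low pool (-1.13), and that array is the one that stands apart.

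The place on the control gradient was also read by annotated start, with a C and at least 4 pyrimidines counted as a run. Of 41 tested probes of 30 genes with it, 30 were lower and 3 higher in the high than in the untranslated pool, with a median of -1.07. Of 16 probes of 13 genes without it, 8 were lower and 4 higher, with a median of -0.28. Of 17 probes of 12 genes not in the table, 11 were lower and 2 higher, with a median of -1.06. The difference between these sets was not tested.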
